A study of Caenorhabditis elegans with 245 samples.

Results

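Small RNA libraries were made from whole Caenorhabditis elegans males that were homozygous or heterozygous for a deletion allele of rnst-2, and these 11 of the 245 samples of the series were chosen by the genotype and sex in their labels. The 5 heterozygous samples are labelled rnst-2(pen1)/tmc16;fog-2 and are called del/+ here, and the 6 homozygous samples are labelled rnst-2(pen1);fog-2 and are called del/del. tmc16 is the balancer chromosome that keeps the wild-type copy of rnst-2 in the heterozygotes, so del/+ and del/del males also differ by the presence of that chromosome. The fog-2 mutation, which stops hermaphrodites from making sperm and leaves males fertile, is shared by both groups. Males were picked at the L4 stage from crosses between heterozygous parents, kept at 20 °C for 24 h, and lysed as pools of about 50 adults. The pen1 allele is a small insertion or deletion near the 5′ end of the gene that shifts the reading frame to an early stop. A library was made from 200 ng of RNA, with RNAs of 18 to 40 nt cut from a gel. The comparison asks which small RNAs change when the enzyme is missing. The labels do not say whether the samples of a group came from separate crosses, so p-values measure the spread between these samples.

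RNST-2 is the worm's RNase T2, a family of endoribonucleases that work in acid compartments such as the lysosome or vacuole, where they break down ribosomal and transfer RNA. Transfer RNAs (tRNAs) carry amino acids to the ribosome, and short RNAs cut from them are called tRNA-derived RNAs (tDRs). An isoacceptor is the group of tRNA genes that read the same codon set, named by amino acid and anticodon. Worms also make microRNAs (miRNAs), piRNAs of the germline, and endo-siRNAs, which are copied by RNA-dependent RNA polymerases from messenger RNAs and so run antisense to them. Short reads in the sense of a transcript are counted as mRNA-fragments, although the rows of that class include non-coding genes.

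Counts of near-identical tRNA genes were summed, and some isoacceptors share their 5′ part. Of the isoacceptors named in the results, 6 are therefore shown by a RefSeq gene sequence (WBcel235, without the CCA end), with the anticodon in capitals. The sequence shown is that of 5 of 6 RefSeq genes for Gln-CTG, 15 of 18 for Gln-TTG and 9 of 19 for Leu-AAG. It is that of 24 of 31 for Pro-TGG, 15 of 21 for Ala-AGC and 11 of 15 for Ser-AGA. Other sequences of these isoacceptors and the other named isoacceptors are not shown. Each sequence is taken from a gene whose position is given next. The genes lie at IV:12416942-12417013 on the minus strand for Gln-CTG, X:12937701-12937772 on the plus strand for Gln-TTG, X:353255-353336 on the minus strand for Leu-AAG, X:3969556-3969627 on the plus strand for Pro-TGG, X:9622824-9622895 on the minus strand for Ala-AGC and X:8971600-8971681 on the plus strand for Ser-AGA. The first 5 rose in del/del males and Ser-AGA did not pass the threshold.
Gln-CTG: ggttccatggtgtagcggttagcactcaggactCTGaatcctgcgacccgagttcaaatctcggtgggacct
Gln-TTG: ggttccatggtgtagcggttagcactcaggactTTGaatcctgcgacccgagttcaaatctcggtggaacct
Leu-AAG: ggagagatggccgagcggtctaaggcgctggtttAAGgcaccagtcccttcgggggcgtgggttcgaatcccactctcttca
Pro-TGG: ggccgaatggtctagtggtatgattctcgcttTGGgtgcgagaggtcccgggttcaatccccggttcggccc
Ala-AGC: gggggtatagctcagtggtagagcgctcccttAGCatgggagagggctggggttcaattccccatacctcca
Ser-AGA: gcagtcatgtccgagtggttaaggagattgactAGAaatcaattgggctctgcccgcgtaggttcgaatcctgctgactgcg
The Gln-CTG and Gln-TTG sequences are identical over their first 33 bases and at 70 of 72 positions, and differ by C34T and G68A, counted from the 5′ end with the base of Gln-CTG first. A fragment that ends before position 34 matches both, so counts of these isoacceptors can be split between them.

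The libraries held between 4976236 and 10456806 counts in del/+ and between 6121888 and 12250214 in del/del males. Levels are given as rpm, the count of an RNA in 1e+06 counts of all classes of its library. rnst-2 itself (V:1061595-1067908) gave too few reads to check the labels. Its mRNA-fragments had 17, 32, 4, 0 and 15 counts in del/+ replicates 1 to 5 and 7, 4, 3, 15, 4 and 2 counts in del/del replicates 1 to 6, and these overlap. Replicates 4 and 5 of each group stood apart from replicates 1 to 3 in ways the genotype does not give. They had 18165 to 31142 RNAs above 0 counts against 37028 to 46607, piRNA shares of 0.556% to 0.764% against 1.30% to 1.54%, and 1001 to 3976 rpm of mir-90 against 21421 to 38776 rpm. del/del replicate 6 had few counts too, but 32989 RNAs, a piRNA share of 1.83% and 11719 rpm of mir-90. The labels name no batch.

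Fragments of ribosomal RNA took up the most added reads in del/del males, and tRNA reads rose beside them, while miRNAs and endo-siRNAs made up smaller shares. rRNA-fragments were 3.80%, 3.55%, 4.39%, 5.47% and 3.86% of counts in del/+ replicates 1 to 5 and 25.5%, 20.0%, 23.02%, 19.1%, 18.97% and 18.3% in del/del replicates 1 to 6. tRNA reads were 3.81%, 3.41%, 3.57%, 2.91% and 2.55% in del/+ and 9.23%, 8.79%, 7.71%, 8.25%, 7.14% and 10.4% in del/del males. The lowest del/del library lay above the highest del/+ library for both, by 16.6 and 5.33 percentage points between the group means. The exact two-sided Mann–Whitney test gave an adjusted p of 0.00649 for both (5 and 6 libraries, 6 classes), the smallest it can reach here.

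The falls of the miRNA and endo-siRNA shares were smaller without rRNA reads in the total, and only that of miRNAs still passed the threshold. Of all counts, miRNAs made up 27.2% to 33.5% in del/+ and 17.5% to 22.4% in del/del libraries, and endo-siRNAs 52.2% to 58.5% and 33.7% to 48.4%, with no overlap for either (adjusted p = 0.00649, exact Mann–Whitney). Without rRNA counts in the total, tRNA reads still separated the groups (3.39% ± 0.522 and 10.8% ± 1.49, SD, n = 5 and 6, exact adjusted p = 0.00866). miRNAs then differed by -5.16 points (exact adjusted p = 0.0455) with overlapping libraries, and endo-siRNAs by -6.07 points (exact adjusted p = 0.0623), past the threshold no longer. piRNAs made up 0.660% to 1.54% of counts in del/+ and 0.556% to 1.83% in del/del libraries (difference 0.0344 points, exact p = 0.931).

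**Figure D1:**
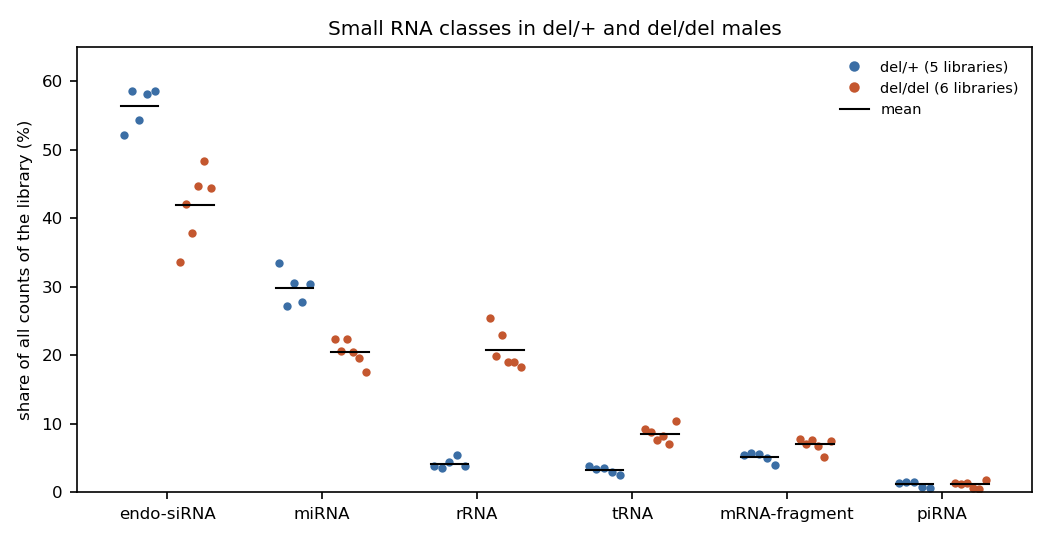
Share of each small RNA class in percent of all counts of the library, with a point for each of the 5 del/+ and 6 del/del libraries and a line at the group mean. rRNA shares lie between 3.55% and 5.47% in del/+ and between 18.3% and 25.5% in del/del libraries, and piRNA shares overlap.

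With the replicate number as a pair, the rRNA and tRNA differences were 17.1 and 4.97 points within 5 pairs and that of piRNAs turned to -0.0921 points, but the exact sign-flip test of 5 pairs cannot go below 0.0625. In a whole animal, a change in the number of cells of a type and a change in RNA per cell cannot be told apart, here or in the results that follow.

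The test of each RNA was the quasi-likelihood test of edgeR, Benjamini-Hochberg adjusted over the 15133 RNAs that had at least 10 counts in at least 5 libraries and a threshold of an adjusted p of 0.05. Of these RNAs, 197 rose (1.3%) and 1825 fell (12.1%) in del/del males with all counts as the library size, 13.4% in all. With rRNA counts left out of the library size 148 rose (0.978%) and 89 fell (0.588%), 1.57% in all, and 147 of the risen and all 89 of the fallen were called with both sizes. Leaving out 1 library gave 136 to 246 rises and 908 to 2863 falls with all counts, and 90 to 208 rises and 8 to 335 falls without rRNA, where each of the 11 libraries moved the falls by over 1.5 times. Over the RNAs tested, the median log2 fold change was -0.39 with the first size and -0.12 with the second, and moved to 0.04 with TMM factors (159 rose and 10 fell) and to 0.08 with DESeq2 (417 and 80). Rises are therefore described as called with both sizes unless stated, and most falls belong to the larger size only. With replicates 1 to 3 alone 297 rose and 2646 fell (191 and 7 without rRNA), and with replicates 4 to 6 alone, 2 against 3 libraries, 16 rose and 0 fell (27 and 0 without rRNA, with 2126 and 1414 RNAs at an unadjusted p under 0.05). Of the named RNAs, 95 lost their call with replicates 4 to 6 alone, and 23 lost and 6 gained one with replicates 1 to 3 alone. The subset of replicates 4 to 6 holds del/del replicate 6, which differed from replicates 4 and 5 in piRNA share and mir-90. There is no del/+ replicate 6, so this subset is mixed in del/del males only. With the replicate pairs as a block 195 rose and 2989 fell, and 145 and 241 without rRNA.

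**Figure D2:**
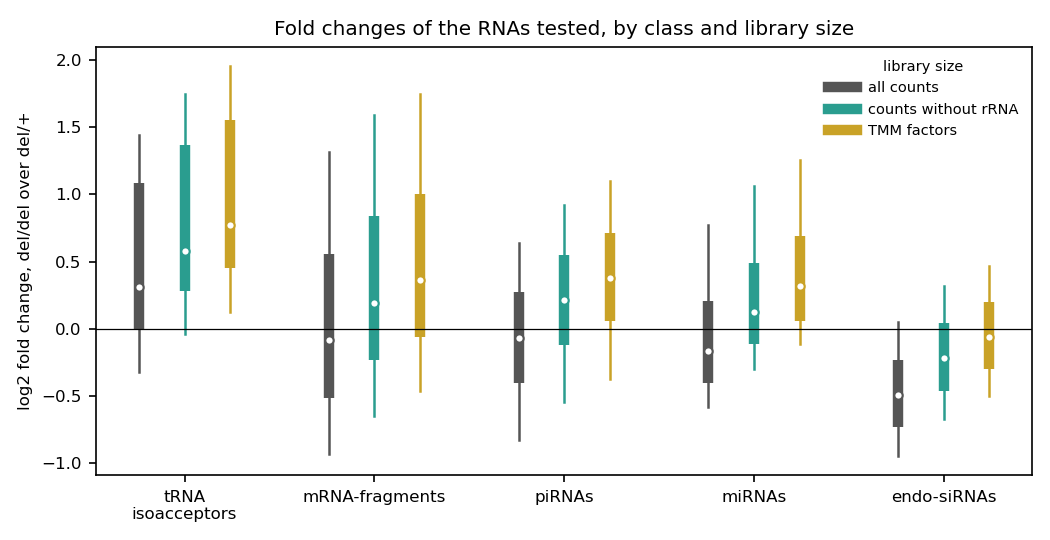
Log2 fold change of del/del over del/+ for the RNAs tested in each class, with the library size as all counts, counts without rRNA, or TMM factors. Bars span the middle of the RNAs from the 25th to the 75th percentile, thin lines the 10th to the 90th, and points mark the median, which for endo-siRNAs is -0.49, -0.22 and -0.06 and for tRNA isoacceptors 0.31, 0.58 and 0.77.

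Among ribosomal RNAs, the fragments of the large and small subunit RNAs rose. Those of 5S did not pass the threshold in edgeR with either library size and no block. 26S, the large subunit RNA, was at 14440.5, 12015, 17649.6, 28731 and 17827 rpm in del/+ and at 145086, 114046, 132192, 121995, 116881 and 112649 rpm in del/del replicates. Each del/del library was far above the highest del/+ library, replicate 4. Its log2 fold change was 2.77 (SE 0.22, adjusted p = 5.21e-06, edgeR) and 3.05 without rRNA in the library size. 18S, the small subunit RNA, had a log2 fold change of 3.01 (SE 0.22, adjusted p = 4.53e-06, edgeR), from 5287 to 10357 rpm in del/+ up to 43967 to 70743 rpm in del/del libraries. 5.8S, which pairs with 26S in the large subunit, rose from 1669 ± 142 rpm to 8069 ± 1699 rpm (SD, n = 5 and 6; log2 fold change 2.27, adjusted p = 5.21e-06, edgeR).

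5S, which is transcribed apart from the other rRNAs, was at 15718, 16528, 18746, 14133 and 12807 rpm in del/+ and 30626, 24436, 27405, 14217, 16020.0 and 15568 rpm in del/del replicates. del/del replicates 1 to 3 lay above every del/+ library and replicates 4 to 6 lay within them. The log2 fold change was 0.46 (SE 0.22, adjusted p = 0.187, edgeR) and 0.74 without rRNA (adjusted p = 0.126), past the threshold with the replicate pairs as a block (adjusted p = 0.0364 and 0.0324). With replicates 1 to 3 alone 5S rose (log2 fold change 0.69, adjusted p = 0.00242, edgeR). DESeq2 called all 4 rRNAs as risen, 5S among them. The share of 5S in all rRNA counts went from 25.8% to 46.5% in del/+ down to 7.45% to 12.2% in del/del libraries (exact Mann–Whitney, adjusted p = 0.00649 over 3 shares within classes) without overlap, while the other 3 rRNAs rose. The fragments of the 2 mitochondrial rRNAs, looked at after other values were seen, did not pass the threshold either. MTCE.33 had a log2 fold change of -0.40 (adjusted p = 0.296) and MTCE.7 of -0.28 (adjusted p = 0.67, edgeR), with 4860.0 and 3681 rpm of MTCE.33 in del/+ and del/del males on average. MTCE.33 fell with the block (adjusted p = 0.0178) and with replicates 1 to 3 alone (0.0456), but with the block not without rRNA in the library size (0.388).

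**Figure D3:**
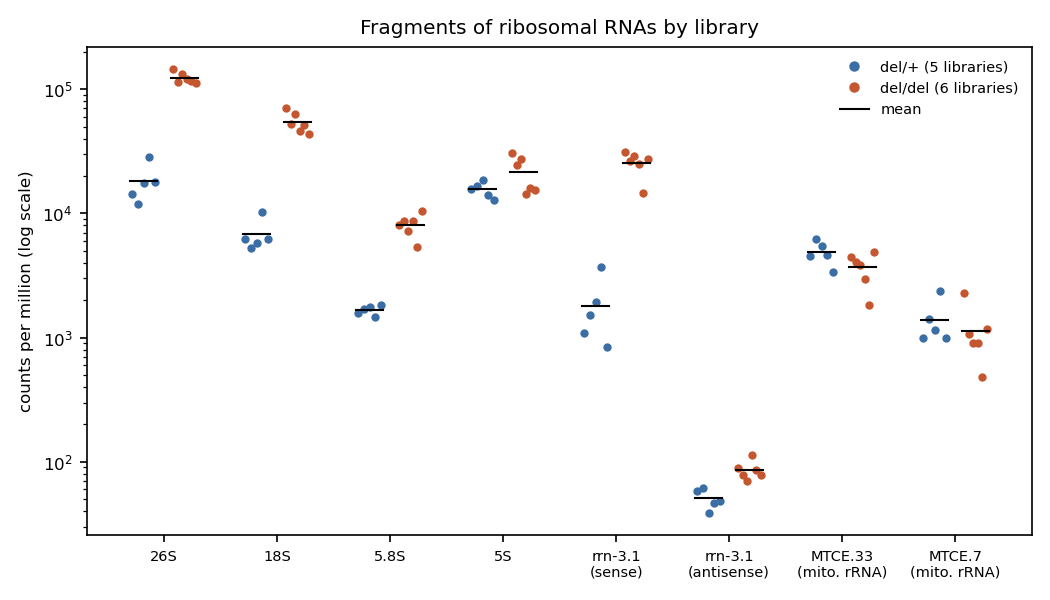
Levels in rpm of fragments of 4 rRNAs, of rrn-3.1 in sense and antisense, and of the 2 mitochondrial rRNAs, on a log axis, with a point per library and a line at the mean. 26S, 18S, 5.8S and sense rrn-3.1 separate the groups, 5S and the mitochondrial rRNAs overlap.

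Of 57 tRNA isoacceptors tested, 15 rose (26.3% of the tRNA rows) and 0 fell with all counts as the library size (4127 RNAs of all classes were at an unadjusted p under 0.05), 14 and 0 without rRNA, 16 and 0 with TMM factors and 30 and 0 with DESeq2. The 13 called with both sizes carry aspartate, glycine, glutamate, glutamine, cysteine, leucine, selenocysteine, alanine, proline and isoleucine. edgeR called no isoacceptor of serine (4 tested), threonine (4), arginine (6), lysine (2), valine (2) or histidine (2) with either size, and DESeq2 called 3 of arginine, 1 of serine and 1 of threonine. Valine isoacceptors were near the floor, so the missing calls say little about them. Val-AAC averaged 4.40 rpm in del/+ and 4.49 rpm in del/del males, and Val-GAC 1.27 and 0.977 rpm. Val-CAC and Val-TAC had 0 counts in every library. With replicates 4 to 6 alone 2 isoacceptors rose, Asp-GTC and Gly-GCC. The counts moved with single libraries, to 9 without del/+ replicate 4 or 5, and without rRNA to 9 without del/+ replicate 2, 3, 4 or 5 or del/del replicate 6 and to 22 without del/del replicate 5.

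Gly-GCC, which had the largest log2 fold change of the 15, was at 3250.0, 3864, 4314, 1735 and 1104 rpm in del/+ and at 21388, 20909.8, 12893, 22508, 26567 and 17073 rpm in del/del replicates. The groups lay far apart, and del/+ replicates 4 and 5 were the lowest of all. Its log2 fold change was 2.83 (SE 0.33, adjusted p = 0.000321, edgeR), and its share of tRNA counts rose from 4.32% to 12.1% in del/+ to 16.4% to 37.2% in del/del libraries (exact Mann–Whitney, adjusted p = 0.00649). Glu-CTC, the most abundant isoacceptor, was at 14197, 13339.5, 14751, 11403 and 10162 rpm in del/+ and 42671, 39804, 37260.2, 29772, 20401 and 52309.7 rpm in del/del replicates. It was higher in every del/del library (log2 fold change 1.54, SE 0.22, adjusted p = 0.00188, edgeR), while its share of tRNA counts overlapped, at 37.3% to 41.4% and 28.6% to 50.3% (exact p = 0.429).

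Asp-GTC was at 1778, 2099, 1794, 2834 and 2609 rpm in del/+ and 10105, 8836, 6033, 10549, 8966 and 8949 rpm in del/del replicates, without overlap and with the smallest adjusted p of the isoacceptors (log2 fold change 2.00, SE 0.19, adjusted p = 3.76e-05, edgeR). Unlike Gly-GCC, it was highest among heterozygotes in replicates 4 and 5. Gln-CTG rose from 229, 177, 204, 253 and 217 rpm to 1315, 958, 1169, 923, 626 and 3681 rpm, with replicate 6 well above the others (log2 fold change 2.74, SE 0.39, adjusted p = 0.00197, edgeR). Cys-GCA was also highest in replicate 6, at 123, 124, 122, 137 and 108 rpm in del/+ and 389, 492, 403, 735, 549 and 2084 rpm in del/del replicates (log2 fold change 2.66, adjusted p = 0.00306, edgeR). Neither overlapped between the groups, and both passed the threshold without replicate 6.

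Gln-TTG, whose sequence matches Gln-CTG up to the anticodon, was at 537, 476, 564, 287 and 291 rpm in del/+ and 1033, 951, 1088, 622, 460.5 and 1830.3 rpm in del/del replicates. del/del replicate 5 lay among the heterozygotes, and the call (log2 fold change 1.21, SE 0.31, adjusted p = 0.0224, edgeR) was lost without del/+ replicate 4 or 5 (adjusted p = 0.0588 and 0.0599). Leu-AAG rose in every del/del library, from 499, 413, 419, 529 and 596 rpm to 926, 1061, 1288, 1244, 2242 and 1016 rpm (log2 fold change 1.40, adjusted p = 0.00377, edgeR). Ala-AGC rose by less but without overlap, with 1082 to 1387 rpm in del/+ and 1559 to 2333 rpm in del/del libraries (log2 fold change 0.64, SE 0.16, adjusted p = 0.0174, edgeR), but did not pass with replicates 1 to 3 alone (adjusted p = 0.0920). 

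Of the other isoacceptors called with both sizes, Leu-TAA rose by 1.30, the selenocysteine tRNA by 0.94, Pro-TGG by 1.32, Ile-AAT by 1.21 and Leu-CAA by 0.59 on the log2 scale. Pro-TGG lost its call without del/+ replicate 2, 4 or 5 (adjusted p up to 0.0554), Ile-AAT without del/+ replicate 4 or 5 or del/del replicate 1 (up to 0.0582) and Leu-CAA in 9 of 11 such fits (up to 0.109, edgeR) and with replicates 1 to 3 alone (0.238). Leu-TAG and Pro-CGG were called with all counts only (adjusted p = 0.0756 and 0.0698 without rRNA) and Met-CAT without rRNA only (0.0547 and 0.0208, edgeR), and Leu-TAG reached 154 rpm in del/del replicate 3 against 23.5 to 46.3 rpm in the others.

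Several abundant isoacceptors did not pass the threshold in edgeR. Ser-AGA was at 3349, 3185, 2910.3, 2389.6 and 2143 rpm in del/+ and 2055, 2988, 2542, 3777, 1345 and 3279 rpm in del/del replicates. These values overlapped throughout (log2 fold change -0.07, SE 0.23, adjusted p = 0.908, edgeR; 0.20 without rRNA, adjusted p = 0.825). Of isoacceptors named after their values were seen, Ser-CGA (-0.09), Asn-GTT (0.04) and Lys-CTT (0.14) had log2 fold changes near 0 with all counts as the size, and Glu-TTC, which shares its amino acid with Glu-CTC, had 0.36 (adjusted p = 0.197, edgeR). Without rRNA their values were 0.18, 0.31, 0.43 and 0.64 in that order. None passed the threshold there either, with an adjusted p of 0.0860 for Glu-TTC (edgeR). Asn-GTT and Glu-TTC passed as risen in DESeq2 (adjusted p = 0.0292 and 0.00131). Trp-CCA had the value -1.49 (SE 0.63, adjusted p = 0.142), which rests on 3078, 764, 920.0, 353 and 126 rpm in del/+ replicates, where replicate 1 stood far above the rest, and passed as a fall with replicates 1 to 3 alone (adjusted p = 0.0363, edgeR). Gly-TCC, at 1.44, passed the threshold with the replicate pairs as a block (adjusted p = 0.0593 without and 0.00307 with it, edgeR), with replicates 1 to 3 alone (8.74e-05) and in DESeq2 (0.0313).

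**Figure D4:**
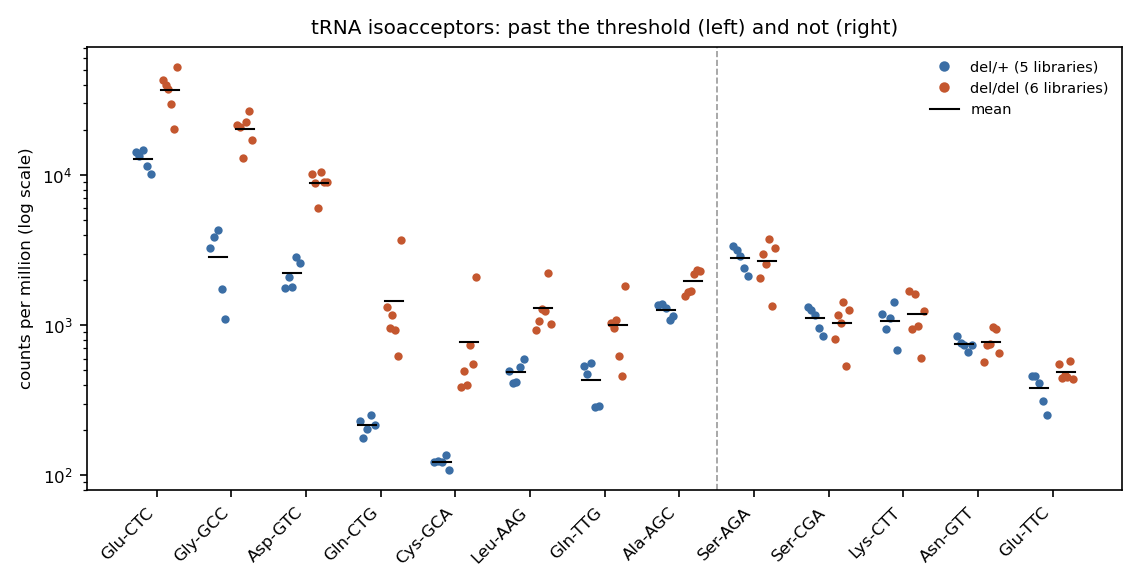
Levels in rpm of 13 isoacceptors by library on a log axis, 8 that passed the threshold in edgeR left of the dashed line and 5 that did not right of it, with a line at the group mean. Gly-GCC lies between 1104 and 4314 rpm in del/+ and between 12893 and 26567 rpm in del/del libraries, while Ser-AGA overlaps.

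The mRNA-fragment class made up a larger share of counts in del/del males, and its rows of rRNA genes rose with it. The class made up 5.42%, 5.82%, 5.60%, 5.05% and 4.03% of counts in del/+ and 7.85%, 7.14%, 7.59%, 6.71%, 5.24% and 7.56% in del/del replicates, with del/del replicate 5 among the heterozygotes (difference 1.83 points, exact Mann–Whitney adjusted p = 0.0364; up to 0.08 in 7 of 11 fits with a library left out). Its 20 rows of rRNA genes went from 0.0929% to 0.380% of counts in del/+ up to 1.47% to 3.14% in del/del libraries. Left out after this was seen, the rest of the class was 4.99% ± 0.687 of counts in del/+ and 4.43% ± 0.392 in del/del males (SD, n = 5 and 6; difference -0.560 points, exact adjusted p = 0.296). With rRNA also out of the total it was 5.22% ± 0.707 and 5.80% ± 0.683 (difference 0.581 points, exact adjusted p = 0.296). Fragments of protein-coding genes made up 1.94% ± 0.172 and 2.03% ± 0.112 of counts. Most of the rRNA-gene reads belonged to rrn-3.1, a 26S gene at I:15064838-15068346, at 1091, 1508, 1929, 3693 and 840.3 rpm in del/+ and 30949.8, 26380.4, 28859, 25123, 14561 and 27419 rpm in del/del replicates (log2 fold change 3.82, SE 0.37, adjusted p = 4.14e-05, edgeR). Reads of 26S genes therefore stand in both the rRNA and the mRNA-fragment class.

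Of 3607 mRNA-fragment rows tested, 163 rose (4.52%) and 29 fell (0.804%) with all counts, and 120 rose (3.33%) and 1 fell (0.0277%) without rRNA. The 120 rows stand for 120 genes, 115 of them protein coding. Cuticle collagens led them. Collagens are the structural proteins of the cuticle that the hypodermis secretes, and col-19 is known as an adult-specific member. Over all 179 collagen rows, the summed level was 62.1 to 114 rpm in del/+ (median 91.8) and 664 to 1031 rpm in del/del libraries (median 773). The groups are far apart, at levels that are a small part of the class.

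col-140 (V:5835855-5836834) was at 5.80, 2.96, 1.25, 3.21 and 2.96 rpm in del/+ and 117, 111, 105, 187, 294 and 166 rpm in del/del replicates. All del/del libraries were above 100 rpm and all del/+ libraries below 6 rpm (log2 fold change 5.64, SE 0.41, adjusted p = 4.53e-06, edgeR). col-124 (IV:10216451-10217617) went from 3.70, 0.956, 2.08, 5.22 and 1.48 rpm to 60.4, 44.3, 45.2, 50.8, 73.1 and 55.5 rpm, a log2 fold change of 4.38 (SE 0.37). col-80 (II:10707201-10708287) was even across the del/del replicates, at 31.5, 30.04, 30.2, 32.1, 36.2 and 37.9 rpm, against 1.10, 1.15, 1.04, 1.00 and 3.69 rpm in del/+ (log2 fold change 4.42, SE 0.35). For both, the lowest del/del library lies above the highest del/+ library.

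The further collagens among the rises of smallest adjusted p were col-106 (3.83), col-122 (3.89), col-81 (5.27), col-184 (2.88), col-19 (4.46) and col-20 (4.07), given as log2 fold changes with adjusted p between 4.53e-06 and 0.000262 (edgeR). col-19 (X:421707-422691) lay between 0 and 2.80 rpm in del/+ and between 26.4 and 41.7 rpm in del/del libraries, with no overlap. Of the collagens 40 passed the filter on low counts, 22 of them with 10 counts in fewer than 3 del/+ libraries, that is mainly through del/del libraries. Of these 40, 28 were called as risen with all counts and 26 with both sizes, and 0 fell, which is no count over all 179 collagens. Antisense to collagens, 25 endo-siRNA rows were tested, and 0 rose and 2 fell with all counts, none with both sizes. Over all endo-siRNA rows 0.12% rose and 17.9% fell with all counts.

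Markers of the hypodermis moved with the collagens: the summed level of col-19, col-119 and dpy-7 was 2.08 to 15.5 rpm in del/+ and 72.4 to 106 rpm in del/del libraries. All 3 are themselves collagens, and dpy-7 was at 0 in all 6 del/del libraries. Muscle markers (unc-54, myo-3 and unc-15) overlapped, at 5.17 to 155 and 2.51 to 106 rpm, as did intestinal markers, at 6.30 to 24.1 and 2.29 to 36.2 rpm. Yolk and oocyte markers, which males should lack, were at 2.40 to 4.16 and 1.53 to 3.67 rpm in sum. The part of cell makeup in the collagen result was not tested.

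Fragments of some sperm genes rose too. Major sperm proteins form the cytoskeleton of the crawling sperm, and their 35 rows summed to 17.4 to 53.3 rpm in del/+ and 73.2 to 160 rpm in del/del libraries. Of 18 tested, 6 rose (5 with both sizes) and 0 fell, beside 4.52% risen in the class, but 5 of the 18 had 10 counts in fewer than 3 del/+ libraries and passed the filter mainly through del/del libraries. msp-64 (II:5809947-5810330) was at 2.30, 6.50, 4.16, 1.81 and 1.85 rpm in del/+ and 12.4, 11.8, 9.90, 26.4, 28.7 and 27.9 rpm in del/del replicates, highest in del/del replicates 4 to 6 (log2 fold change 2.51, SE 0.43, adjusted p = 0.00468, edgeR). msp-152, msp-56 and msp-45 rose by 2.88, 2.87 and 1.21 on the log2 scale. msp genes are near-identical copies, so their reads can be split between them, and msp-45 lost its call without del/+ replicate 2 (adjusted p = 0.0514) or del/del replicate 1 (0.0521). With the block and without rRNA, msp-152 missed the threshold (adjusted p = 0.0509).

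The other spermatogenesis genes, 49 rows, summed to 130 to 172 rpm in del/+ and 222 to 485 rpm in del/del libraries, and 6 of 33 tested rose (5 with both sizes) and 0 fell, beside 4.52% risen in the class. Again 6 of the 33 passed the filter mainly through del/del libraries. spe-18, needed to assemble the organelles that carry major sperm protein, was at 8.80, 9.09, 8.53, 17.5 and 10.7 rpm in del/+ and 26.2, 55.5, 29.2, 88.4, 155 and 73.5 rpm in del/del replicates. Its groups do not overlap, and del/del replicate 5 was the highest (log2 fold change 2.71, SE 0.43, adjusted p = 0.00351, edgeR). nspd-2 (IV:9844060-9844272), of a small peptide family expressed in sperm, was at 13.6, 14.4, 15.2, 13.3 and 10.7 rpm and 30.9, 42.6, 32.2, 69.6, 58.05 and 45.7 rpm (log2 fold change 1.79, adjusted p = 0.000943, edgeR). gsp-3, a sperm-specific protein phosphatase, rose by 1.50 and nspd-1 by 1.52 on the log2 scale. The sum of 8 sperm markers, several of them these same genes, was 24.0 to 43.8 rpm in del/+ and 61.6 to 138 rpm in del/del libraries. Singly, nspd-1 and gsp-3 separated the groups, while msp-3, msp-19, msp-31, msp-78, gsp-4 and spe-11 overlapped. The part of sperm number in these results was not tested.

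**Figure D5:**
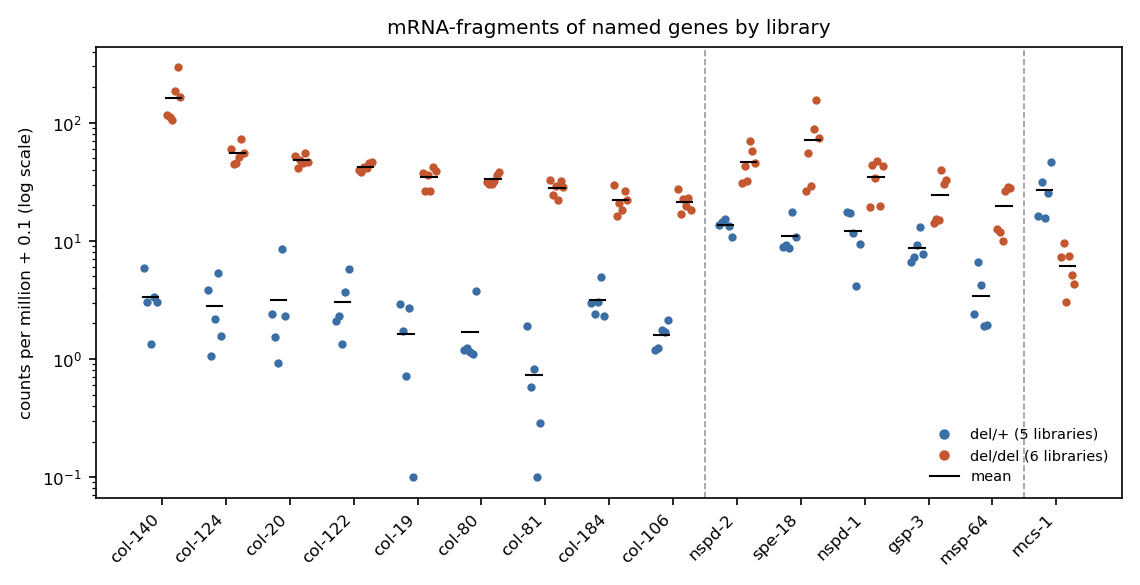
mRNA-fragments of 9 collagens (left), 5 sperm genes (middle) and rncs-1 (right) by library, in rpm plus 0.1 on a log axis, with a line at the group mean. col-140 lies between 1.25 and 5.80 rpm in del/+ and between 105 and 294 rpm in del/del libraries, and rncs-1 is the gene that is lower in del/del males.

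Lists chosen for other pathways showed few calls, in a class of which 4.52% rose and 0.804% fell with all counts. Among sense fragments, 0 of 49 ribosomal protein genes, 0 of 14 chaperones, 0 of 13 lysosomal cathepsins and aspartyl proteases, 0 of 4 autophagy genes, 0 of 19 muscle genes and 0 of 74 snoRNAs passed the threshold in either direction. Lists this short can hold 0 calls at such shares. Their median log2 fold changes with all counts were -0.12, -0.26, 0.31, 1.54, 0.24 and -0.52 in that order, beside -0.09 for the class and 0.85 for V-ATPase genes. Of the 4 autophagy genes, 3 had 10 counts in fewer than 3 del/+ libraries. Of 15 V-ATPase genes, which encode the pump that acidifies lysosomes, vha-13 alone rose and only with all counts (1.81, adjusted p = 0.044 and 0.0798 without rRNA, edgeR; lost in 9 of 11 fits with a library left out). Of 4 histone genes tested, his-62, which reached 10 counts in no del/+ library and so passed the filter through del/del libraries, went from 0 to 0.574 rpm in del/+ to 1.22 to 9.26 rpm in del/del libraries (log2 fold change 3.58, adjusted p = 0.0164, edgeR), a call lost with the block (adjusted p = 0.0539) and with replicates 1 to 3 alone (0.0641).

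rncs-1 (X:1011501-1012347) was the fragment that fell with both sizes. It is a long non-coding RNA of hypodermis and intestine that folds into a duplex and inhibits Dicer. It was at 16.1, 31.4, 15.5, 25.3 and 46.7 rpm in del/+ and 7.21, 9.47, 2.93, 7.36, 5.02 and 4.25 rpm in del/del replicates, with all del/del libraries below all del/+ libraries (log2 fold change -2.14, SE 0.35, adjusted p = 0.00399, edgeR; -1.87 without rRNA, adjusted p = 0.0161). Falls called with all counts only included the non-coding K08B12.13 (-0.999) and Y48A6B.18 (-0.91) and sense fragments of eri-6 (-0.58), a helicase gene of the siRNA pathway, with adjusted p of 0.122, 0.189 and 0.407 without rRNA.

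Among 10008 endo-siRNA rows, 12 rose (0.12%) and 1788 fell (17.9%) with all counts, and 8 rose (0.0799%) and 87 fell (0.869%) without rRNA. Of the 8 that rose with both sizes, 5 lie on the strand opposite an rRNA or tRNA gene, so that a read antisense to them runs in the sense of that gene. F31C3.15 (I:15063050-15063383, minus strand), a non-coding RNA inside the 18S gene rrn-1.1, was at 1.10, 3.25, 1.14, 0 and 4.43 rpm in del/+ and 302, 234, 386, 243, 178 and 222 rpm in del/del replicates. F31C3.14 (I:15067668-15068355), with 679 of its 688 bases opposite the 26S gene rrn-3.1, went from 0 to 0.402 rpm up to 12.6 to 22.97 rpm, and neither overlapped between the groups. Their log2 fold changes were 7.03 (SE 0.55, adjusted p = 5.21e-06) and 6.62 (SE 0.56, adjusted p = 1.04e-05, edgeR). F31C3.13, inside the 18S gene rrn-1.2, had 2 counts over all del/+ and 216 over all del/del libraries, a ratio of depth-scaled counts of 85.1 (95% interval 23.3 to 707, counting error only). The mRNA-fragment rows of rrn-1.1 and rrn-1.2 held 0 counts in all 11 libraries. F31C3.15 and F31C3.13 therefore did not mirror a counted sense row of these genes.

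F31C3.16 (I:15060861-15061159) lies 923 bases before rrn-1.1 on the other strand. It had 0 counts in del/+ and 252 in del/del libraries, at least 66.2-fold higher by the floor of 3 counts over the pooled del/+ libraries, with 0.157 rpm in del/del replicate 5 and 4.30 to 6.70 rpm in the others. Reads antisense to rrn-3.1 itself, which do not run in the sense of rRNA, were at 57.8, 61.5, 38.8, 46.8 and 48.2 rpm in del/+ and 89.5, 78.9, 69.4, 113, 85.5 and 78.4 rpm in del/del replicates. These groups do not overlap, and the rise was smaller than in sense (log2 fold change 0.76, SE 0.17, adjusted p = 0.0131, edgeR; 0.0645 with replicates 1 to 3 alone).

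F35A5.10 (X:3793543-3793641) and F42G10.4 lie opposite the tRNA genes F35A5.t1 (Val-TAC) and F42G10.t1 (Arg-ACG), and rose by 1.84 and 1.56 on the log2 scale (adjusted p = 0.0163 and 0.0222, edgeR). Their counts were nearly those of the sense rows of these tRNA genes, equal in 4 and 9 of 11 libraries and at most 8 and 2 counts apart, so these rows are not independent of the tRNA genes. For F42G10.4 these were 50, 49, 35, 56 and 50 counts in del/+ and 128, 189, 72, 214, 180 and 136 counts in del/del replicates. In the tRNA class, Val-TAC held 0 counts in every library. Of all rows tested, 3 lie opposite rRNA genes and rose, and of 86 opposite tRNA genes 3 rose (2 with both sizes) and 6 fell. F31C3.13, F31C3.14 and F31C3.16 passed the filter on low counts only through del/del libraries. That these rows were tested and rose is therefore no count over all rows opposite rRNA genes. The remaining rise with both sizes was F17E9.5 (0.84, adjusted p = 0.0280).

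The 87 endo-siRNA rows that fell with both sizes were all antisense to protein-coding genes, which are 91.3% of the rows tested, and they are nearly all of the 89 falls without rRNA, a count that went to 8 to 44 with any of 10 libraries left out and to 335 without del/del replicate 5. Chromosome III held 25 of them (28.7%, against 18.6% of the rows tested), II 19 (21.8% and 18.6%), I 17 (19.5% and 21.1%), V 14 (16.1% and 17.2%), IV 12 (13.8% and 18.7%) and X 0 (4.61% of the rows tested). xbp-1 (III:4193809-4195358) encodes the transcription factor of the unfolded protein response, and its endo-siRNAs were at 76.5, 98.9, 108, 101 and 114 rpm in del/+ and 39.7, 49.2, 45.1, 37.9, 32.01 and 48.4 rpm in del/del replicates. All del/del libraries lay below all del/+ libraries (log2 fold change -1.24, SE 0.16, adjusted p = 0.000943, edgeR; -0.97 without rRNA, adjusted p = 0.00543). aip-1, a stress gene that aids the proteasome, was at 54.9 to 71.7 rpm in del/+ and 21.9 to 34.8 rpm in del/del libraries, again without overlap (log2 fold change -1.15, adjusted p = 0.00158, edgeR; 0.0113 without rRNA).

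csn-6, a subunit of the COP9 signalosome, had a log2 fold change of -1.08, dkc-1, the dyskerin that makes pseudouridine in RNA, of -1.05, ncl-1, which limits the size of the nucleolus, of -0.93, and gldr-2 of -0.98 (adjusted p between 0.00188 and 0.00292, edgeR). Without rRNA the adjusted p were 0.0142, 0.0169, 0.0219 and 0.0219. With TMM factors csn-6 (0.0627), ncl-1 (0.0687) and gldr-2 (0.0711) no longer passed, and only 9 endo-siRNA rows fell in all.

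Lists of endo-siRNA targets varied around the class, whose median log2 fold change was -0.49 with all counts and -0.22 without rRNA and of which 17.9% fell with all counts. Of 22 rows of major sperm proteins 1 rose and 0 fell with all counts (median 0.25), and 0 passed without rRNA. Of 48 rows of siRNA pathway genes 19 fell with all counts (median -0.51) and 1 with both sizes, that of wago-4, a germline Argonaute (-0.83, adjusted p = 0.00448 and 0.0494 without rRNA, edgeR). ego-1 and rrf-3, RNA-dependent RNA polymerases, had -0.85 and -0.83 and missed the threshold without rRNA (0.055 and 0.0626). Of 36 rows of chaperones 17 fell (median -0.69), among them hsp-4, the BiP of the endoplasmic reticulum (-1.11, adjusted p = 0.00696 and 0.0551 without rRNA, edgeR), and dnj-9 was the row called with both sizes (0.0499 without rRNA, and 0.0658 with the block as well). Of 72 ribosomal protein rows 18 fell (median -0.68) and of 46 spermatogenesis rows 11 (median -0.38), none of them without rRNA.

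Of 239 miRNAs tested, 1 rose (0.418%) and 6 fell (2.51%) with all counts and 0 rose and 1 fell without rRNA (2166 RNAs of all classes at an unadjusted p under 0.05), while DESeq2 called 3 as risen and 1 as fallen. The miRNA called with both sizes was mir-2209a, at 2210.0, 2669, 2466, 3028 and 3628 rpm in del/+ and 1056, 1652, 1175, 1387, 1191 and 1812 rpm in del/del replicates. All del/del libraries lay below all del/+ libraries (log2 fold change -1.02, SE 0.18, adjusted p = 0.00505, edgeR; -0.75 without rRNA, adjusted p = 0.0424; adjusted p = 0.122 with TMM factors). The table does not say which arm of the hairpin was counted. Both RefSeq arms (gene mir-2209.1, IV:1027101-1027123 and IV:1027143-1027164, plus strand) are shown with the seed, bases 2 to 8, in capitals, beside mir-80, mir-81 and mir-82, which carry the seed of its second arm.
mir-2209a, arm a: gAGUGUAAccacucuucuccuuc
mir-2209a, arm b: aGAGAUCAgcgguuacacuaca
mir-80, arm b: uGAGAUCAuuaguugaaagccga
mir-81, arm b: uGAGAUCAucgugaaagcuagu
mir-82, arm b: uGAGAUCAucgugaaagccagu
Among these, mir-82 had a log2 fold change of -0.82 (adjusted p = 0.0255, edgeR; 0.259 without rRNA), mir-81 of -0.61 (adjusted p = 0.107) and mir-80 of -0.51 (adjusted p = 0.753). mir-80 was at 18819, 17436, 13762, 1446 and 1510.2 rpm in del/+ and 13958, 12576, 11089.7, 1834, 639 and 4662 rpm in del/del replicates, lowest in replicates 4 and 5 of both groups. With replicates 1 to 3 alone mir-80 (-0.41, adjusted p = 0.0351) and mir-81 (-0.65, adjusted p = 0.0109, edgeR) fell with all counts, and 0 miRNAs fell without rRNA. mir-2209b and mir-2209c, which share the number of mir-2209a, did not share its fall. Their log2 fold changes were 0.59 and 0.20 with replicates 1 to 3 alone and -0.31 and 1.04 with replicates 4 to 6 alone. Neither passed the threshold in these subsets. mir-248, mir-61, mir-789-2 and mir-795 fell and mir-4936 rose with all counts only, and each of these calls was lost in 5 to 10 of 11 fits with a library left out.

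Of 1218 piRNAs 3 rose (0.246%) and 2 fell (0.164%) with all counts, and 3 rose and 0 fell without rRNA. piR-cel-2864 was at 7.10, 8.03, 8.21, 6.23 and 9.79 rpm in del/+ and 29.5, 22.5, 16.1, 27.6, 12.4 and 33.2 rpm in del/del replicates, all higher in del/del males (log2 fold change 1.58, SE 0.27, adjusted p = 0.00481, edgeR). piR-cel-10687 was at 0 to 0.500 rpm in del/+ and 0.157 to 9.82 rpm in del/del libraries. piR-cel-22414 had 0 counts in del/+ and 113 in del/del libraries, at least 29.7-fold higher by the same floor, with an adjusted p of 0.0499 without rRNA and 0.0802 with the block as well (edgeR). Both piR-cel-10687 and piR-cel-22414 passed the filter on low counts only through del/del libraries.

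A second allele, pen4, with a substitution at a predicted catalytic residue of a protein that also carries GFP and FLAG tags, was sequenced in males too, with 5 samples of cat/+ heterozygotes as its own controls for 6 cat/cat samples. cat/+ replicate 4 stood apart, with 12310 RNAs above 0 counts against 29569 to 37565 in the other cat/+ libraries. It had 226.6 rpm of mir-90 against 15023.8 to 30170.7 rpm. The catalytic values given here include it. The difference between the alleles' changes was tested in a fit of all 22 libraries. Of 19406 RNAs, 0 differed at the threshold (594 at an unadjusted p under 0.05; edgeR), 0 without rRNA (525), 0 with TMM factors (407) and 0 with the replicate number as a block (233), and 1 without del/+ replicate 3. Without cat/+ replicate 4, 0 of 20769 RNAs differed (472 at an unadjusted p under 0.05, edgeR). Not passing this test does not show that the alleles act alike. The widest gap among the isoacceptors called in del/del males was that of Gln-CTG, at 2.74 in the deletion and 0.76 (adjusted p = 0.53, edgeR) in the catalytic allele, a difference of 1.98 (SE 0.74). For Gly-GCC the difference was 0.18 (SE 0.43), for Glu-CTC 0.37 (SE 0.41), for 26S -0.35 (SE 0.27) and for col-140 1.28 (SE 0.55) on the log2 scale.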

How the data were processed

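Small RNA libraries of whole males were sequenced, 5 of del/+ and 6 of del/del genotype, and grouped by the genotype and sex in the labels. The counts were deposited as raw whole numbers. Per the study's methods and the submitters' processing notes, the authors cloned RNA treated with RppH, which opens 5′ triphosphates, trimmed adapters with Trimmomatic, used Bowtie 2 to match reads first to rRNA, then to miRNA, tRNA and last piRNA, and aligned what was left with STAR. They counted sense (mRNA-fragment) and antisense (endo-siRNA) reads with featureCounts, and tool versions are not given in the sources used here. The matching order decides the class of a read shared by several RNAs. The study names WormBase release WS245, and coordinates are those of RefSeq for WBcel235. Of 47639 transcript IDs, 47298 were matched to a gene, and of 820 tRNA genes 26 had no assigned anticodon.

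tRNA genes of an isoacceptor were added up before testing. RNAs reaching 10 counts in 5 or more of the 11 libraries were tested with edgeR 4.0.16 in R 4.3.3, each library scaled by its total count alone, and Benjamini-Hochberg adjustment at 0.05. The same test without rRNA rows in the library size is given beside it. Class shares were compared by exact two-sided Mann–Whitney tests in scipy 1.17.1, adjusted over 6 classes, or over 3 shares within classes. 5 libraries against 6 cannot give a p below 0.00433, 3 against 3 below 0.1 and 2 against 3 below 0.2. Alternatives were TMM factors, DESeq2 1.42.0, no filter, tRNA genes apart, a replicate block, replicates 1 to 3 or 4 to 6 alone, and each library left out. The pairing uses the replicate numbers, which are all that the labels give. Same-numbered libraries of the groups had correlations of 0.185 to 0.439 over 5 pairs. Only 3 of the 5 del/+ libraries correlated most with the del/del library of their own number. del/+ replicate 3 correlated most with del/del replicate 1, and del/+ replicate 4 with del/del replicate 5. Results with the replicate pairs or block therefore rest on a pairing that is not established. Intervals and floors of 3 counts cover counting error only.

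The RNAs named are the 4 rRNAs, rnst-2, the isoacceptors Gly-GCC, Glu-CTC, Ser-AGA and Gln-TTG, every isoacceptor past the threshold with either library size, up to 4 called members of each gene list, and, of the RNAs called with both sizes and moving the same way under TMM and DESeq2 scaling, those of smallest adjusted p: up to 10 risen and 5 fallen mRNA-fragments, 6 endo-siRNAs and 6 miRNAs each way and 4 piRNAs each way. Chosen after their values were seen were the mitochondrial rRNAs, the isoacceptors that did not pass, F17E9.5, F42G10.4, mir-80, mir-81, mir-2209b, mir-2209c and the miRNAs and fragments called with all counts only. Samples, gene lists and tests were chosen with earlier results of these data known. In simulated libraries of 14374 RNAs, the test found 8 of 88 RNAs changed by 1 and 99 of 105 changed by 2 on the log2 scale, with 6 false calls. The simulation used the same set spread for every RNA, which was not estimated from these libraries.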

Additional observations from a re-analysis of the deposited data

Results flagged for a closer look

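Among named RNAs, 21 of 218 groups of 5 or 6 libraries held 1 library far from the others by Dixon's criterion, which chance alone meets in about 1 of 20 groups. The values are rpm.

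Among rRNAs and tRNAs, 18S was at 1.036e+04 in del/+ replicate 4, where the others had 5287 to 6258. Replicate 6 of del/del was far above the other libraries for Cys-GCA (2084), Gln-CTG (3681) and Pro-CGG (419.2), replicate 5 for Leu-AAG (2242) and replicate 3 for Leu-TAG (154.2). Sense fragments of rrn-3.1 were lowest in del/del replicate 5 (1.456e+04 against 25123 to 30950).

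Among mRNA-fragments, collagens were high in single del/+ libraries, col-80 in replicate 5 (3.694) and col-184 (4.823) and col-20 (8.44) in replicate 4, all below every del/del library. spe-18 was high in del/+ replicate 4 (17.48), msp-45 low in del/+ replicate 5 (2.216), his-62 high in del/del replicate 5 (9.256) and Y48A6B.18 low in del/+ replicate 1 (22.8).

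Among endo-siRNAs, F31C3.13 had its only del/+ counts in replicate 2 (0.1913), and F31C3.16 was near 0 in del/del replicate 5 (0.1569). spe-5 was high in del/+ replicate 5 (92.16), ZC15.4 in del/del replicate 3 (439.7), and clec-238 in replicate 1 of both groups (9.2 in del/+ and 3.521 in del/del). piR-cel-10687 was highest among heterozygotes in replicate 1 (0.5).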

How the results depend on the processing

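Leaving rRNA out of the total took the endo-siRNA difference to -6.07 points, past the threshold no longer. With replicates 1 to 3 alone the class differences were 18.9 (rRNA), 4.98 (tRNA), -8.58 (miRNA), 1.92 (mRNA-fragment), -17.1 (endo-siRNA) and -0.0968 points (piRNA, reversed), and with replicates 4 to 6 alone 14.1, 5.86, -9.81, 1.96 and -12.4 for the first 5. With the replicate block they were 17.1, 4.97, -8.73, 1.72, -14.96 and -0.0921 points. Neither subset nor the pairs can reach 0.05. Within classes, the Gly-GCC difference was 10.6, 21.8 and 17.2 points and that of 5S -31.5, -21.4 and -27.5 points in the same 3 settings, and Glu-CTC turned to -1.12 with replicates 4 to 6. Without rRNA-gene rows, chosen after seeing the data, the mRNA-fragment difference was -0.560, or 0.581 with these and rRNA out of the total. With a library left out, piRNA ranged from -0.0921 to 0.163 and mRNA-fragments from 1.54 to 2.19 points. The RNAs that rose numbered 197, against 417 with DESeq2, 321 with no filter, 380 with tRNA genes apart, 297 with replicates 1 to 3, 16 with replicates 4 to 6 (27 without rRNA) and 136 to 246 with a library left out. Those that fell numbered 1825, against 89 without rRNA, 10 with TMM, 80 with DESeq2, 542 with no filter, 2989 with the replicate block (241 without rRNA), 319 with a block of replicates 1 to 3 against 4 to 6 and no rRNA, 36 without rRNA-gene rows, 7 with replicates 1 to 3 and no rRNA, 0 with replicates 4 to 6 (2126 at an unadjusted p under 0.05) and 908 to 2863 with a library left out (908 without del/+ replicate 2, 2863 without del/del replicate 5). Without rRNA the counts with a library left out were 90 to 208 risen, with 98, 92 and 90 without del/del replicate 1, 4 and 6, and 8 to 335 fallen, where each of the 11 libraries moves the count by over 1.5 times. Isoacceptors that rose numbered 30 with DESeq2, 2 with replicates 4 to 6, 22 with the block of replicate sets and no rRNA, and 9 to 18 (9 to 22 without rRNA) with a library left out, and those that fell 2 with no filter and 1 with replicates 1 to 3. The alleles differed in 0 to 1 RNAs with a library left out. The fragment ZK250.15 had 0.0209 in place of a fall with DESeq2. Of the named RNAs' values, 1196 kept their side of the threshold with a library left out, 203 lost it and 5 gained it, and in other settings 1147, 588 and 42. The cause of these shifts was not tested. DESeq2 was not run for the difference between alleles.

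In simulated libraries with the same set spread for every RNA, changes of 1 on the log2 scale were mostly missed (8 of 88 found). That spread was not estimated from these libraries, where smaller changes could pass, such as that of Ala-AGC (0.64). The simulation therefore does not give the share of changes missed here. An RNA that did not pass is still not shown to be unchanged.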
